A study of Homo sapiens with 12 samples.

Results

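The genes described here are 10 acute-phase, iron-binding and complement genes whose proteins are secreted by epithelium, or in the case of PIGR released after cleavage: CP, LCN2, LTF, C3, CFB, SAA1, SAA2, SERPINA1, SERPINA3 and PIGR. They are 10 of the 58302 genes in the expression table and were found by their symbols. The set was chosen from measured values of these libraries, so the values of the 10 genes are given as a description, with no test.

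RNA sequencing was performed on 12 libraries, 3 from each of 4 groups. BxPC-3 and CFPAC-1 are human pancreatic ductal adenocarcinoma cell lines, and their GEM-resistant derivatives, CFPAC-1-GR and BxPC-3-GR, were made by stepwise exposure to rising concentrations of gemcitabine (GEM), a nucleoside analogue used against pancreatic cancer. Each resistant line is 1 derived population, and nothing states that the 3 libraries of a group came from separate cultures, so p-values measure the spread between these libraries, which may be technical. The labels give 1 medium, RPMI, for all lines, whereas the methods of the study give IMDM for CFPAC-1, and a difference of medium cannot be told apart from a difference between the lines.

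The values are FPKM (fragments scaled to gene length and to the mapped fragments of the library). Steps between low values implied 12600000 to 25200000 mapped fragments per library, with 60.2% to 71.2% of low values within 0.03 of a whole fragment. No replicate libraries held equal values, and their correlation on the log2(FPKM + 1) scale was 0.9850 to 0.9889. The difference between CFPAC-1-GR and CFPAC-1 followed the GC content of the genes (Spearman rho = -0.777 across 12030 genes), as did that between the parental lines (rho = -0.628 across 11821 genes). It did not between BxPC-3-GR and BxPC-3 (rho = 0.0388) or between the resistant lines (rho = 0.0206), so the contrasts that follow GC content are those that hold the CFPAC-1 libraries. Values corrected for GC content and gene length are therefore given beside log2 differences that involve CFPAC-1 where they bear on a named gene.

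Markers of ductal epithelium were high in every group, with 7 or 8 of 8 at a mean of at least 1 FPKM. The labels describe BxPC-3-GR as mesenchymal in shape, and markers of that state differed from BxPC-3 in both directions. VIM was 0.81 ± 0.11 FPKM (SD, n = 3) there against 6.59 ± 0.94 and SNAI2 was 23.0 ± 0.37 against 41.2 ± 1.93, whereas CDH2 was 5.40 ± 0.83 against 1.99 ± 0.39 and FN1 was 9.09 ± 0.26 against 5.30 ± 0.19. The other 4 of the 8 markers (ZEB1, ZEB2, TWIST1 and SPARC) were at most 0.042, and the summed level was 37.4 to 39.6 FPKM in BxPC-3-GR against 51.9 to 57.6. The epithelial CDH1 was 45.3 ± 11.6 against 43.0 ± 10.5. The liver is the main source of most acute-phase proteins, and the summed FPKM of 8 hepatocyte markers was at most 0.170 in either BxPC-3 group. It was 11.1 to 14.9 in the CFPAC-1 groups, where FGB was the 1 marker of 8 at a mean of at least 1 FPKM and ALB was at most 0.022 ± 0.004. PTPRC, the pan-leukocyte marker, was listed at 0 in all 12 libraries. The summed level of 8 leukocyte markers was 184 to 200.1 FPKM in BxPC-3 and 111 to 123 in BxPC-3-GR, and between 20.6 and 41.5 in the CFPAC-1 groups, the parental libraries above the resistant ones. LAPTM5 had the highest level of these markers in both BxPC-3 groups and CD68 in both CFPAC-1 groups. That of 8 acinar markers was 0.897 to 1.36 in BxPC-3 and 4.78 to 5.61 in BxPC-3-GR, where 1 of 8 reached a mean of 1 FPKM, and at most 0.664 in the CFPAC-1 groups. The part of these shifts in the results was not tested, and in bulk libraries more cells that express a gene and more RNA per cell cannot be told apart.

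The acute-phase response is a change in secreted proteins that follows infection or injury. Interleukin-6 family cytokines acting through STAT3, and interleukin-1 and tumor necrosis factor acting through NF-kB and C/EBP factors, are its best known inputs, and epithelia make several of its proteins outside the liver. Complement is a cascade of secreted proteases and binding proteins in which cleavage of C3 is the central step, and several of the other proteins withhold iron from bacteria or inhibit proteases of neutrophils.

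LCN2 was the most abundant of the 10 genes in every group, and C3 was next except in CFPAC-1-GR, where SAA1 came before it. In BxPC-3-GR, SAA1, CP and PIGR stood at 28.7, 26.8 and 26.4 FPKM with overlapping ranges, so that their order is not resolved. SERPINA1 and SERPINA3 overlapped in CFPAC-1-GR, SAA2 and SERPINA3 in CFPAC-1, and CFB, SERPINA3 and SERPINA1 in BxPC-3, where all of these last were under 0.07 FPKM. Together the 10 genes made up 0.0773% to 0.0806% of the summed FPKM in BxPC-3 libraries and 0.186% to 0.216% in BxPC-3-GR libraries, while the share was 0.719% to 0.820% in CFPAC-1, with values between 0.467% and 0.496% in CFPAC-1-GR.

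**Figure D1:**
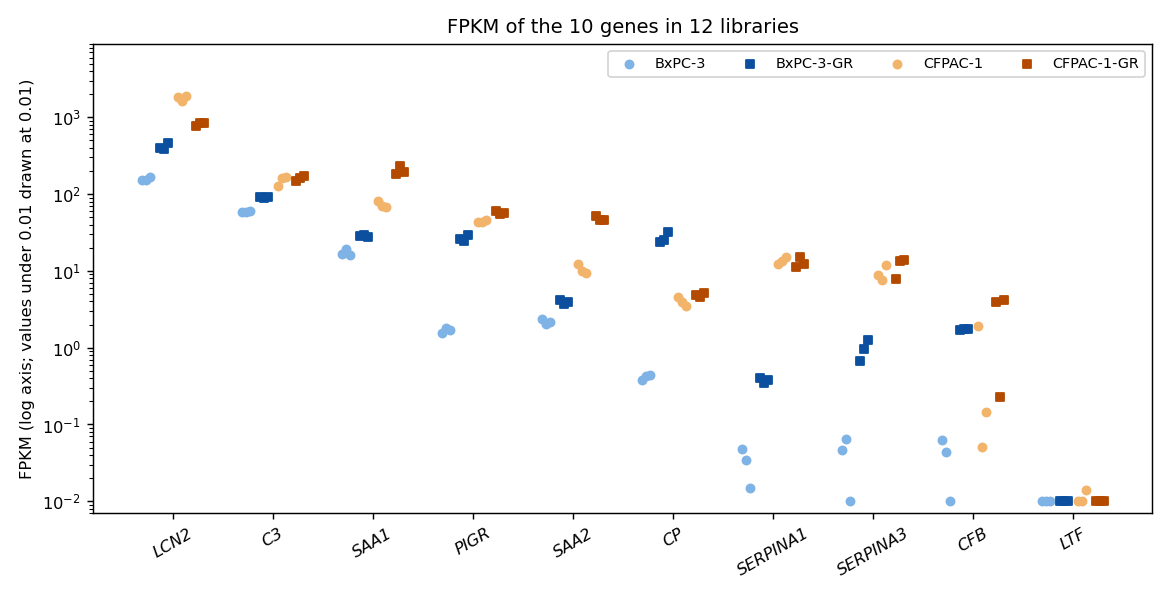
FPKM (log axis) of the 10 genes in each of the 12 libraries, with 1 point per library, circles for parental and squares for resistant cells, and values under 0.01 drawn at 0.01. BxPC-3-GR lies above BxPC-3 for 9 genes, of which CFB, SERPINA1 and SERPINA3 rest on few fragments in BxPC-3. Of the 10 genes, 6 were tested in this pair. Of all 11710 genes tested in it, 66.1% had groups that did not overlap, with both directions counted. For LCN2 the squares lie above the circles in BxPC-3 and below them in CFPAC-1.

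CP encodes ceruloplasmin, the copper-carrying ferroxidase of plasma, and lies on the minus strand of chromosome 3 (GRCh38, chr3:149162410-149222055). It was 0.380, 0.434 and 0.443 FPKM in the BxPC-3 libraries and 23.6, 25.1 and 31.8 in the BxPC-3-GR libraries, which is a 64.1-fold ratio of the means. It was 4.54, 3.88 and 3.53 in CFPAC-1 and 4.93, 4.56 and 5.13 in CFPAC-1-GR. CP was thus lowest in BxPC-3 and highest in the cells derived from it, and neither pair of groups overlapped. The difference of log2(FPKM + 1), written log2FC below, was 4.28 (SE 0.111) in BxPC-3 and 0.24 (SE 0.0930) in CFPAC-1. With 39.1% GC, CP had the lowest GC content of the 10 genes, and with the correction its log2FC in CFPAC-1 turned to -1.01, while that in BxPC-3 was 4.32. The direction for CP in CFPAC-1 therefore depends on the correction. HPS3, on the opposite strand, shares 1418 exon bases with CP, and it too was higher in the resistant cells, at 7.73 to 8.91 FPKM against 4.70 to 4.96 in BxPC-3 and at 4.68 to 5.11 against 1.71 to 1.73 in CFPAC-1. Whether counting used strand is not given in the sources used here, so fragments of the shared bases cannot be told apart.

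LCN2 encodes lipocalin 2, which binds bacterial siderophores and so withholds iron, and lies on the plus strand of chromosome 9 (chr9:128149071-128153455). It was 151, 152 and 167 FPKM in BxPC-3 and 398, 388 and 465 in BxPC-3-GR. In CFPAC-1 it was 1844, 1623 and 1915, and in CFPAC-1-GR 769, 850 and 842. LCN2 was the only one of the 10 genes that lay higher without overlap in one resistant line and lower without overlap in the other. The log2FC was 1.40 (SE 0.0868) in BxPC-3 and -1.13 (SE 0.0877) in CFPAC-1. With the GC and length correction these were 1.46 and -0.40, so the opposite directions remained but the fall in CFPAC-1 was then smaller than 1 in size.

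The promoters of LCN2 and CFB are shown because they are the ones among the members found in the promoter table that hold a match to the NF-kB motif. The bases are the 250 before the RefSeq start (GRCh38.p14, plus strand, chr9:128149203-128149452 for LCN2 and chr6:31945845-31946094 for CFB), with matches in capitals. Both windows lie inside the gene as annotated by GENCODE, which begins at chr9:128149071 for LCN2 and at chr6:31945650 for CFB.
LCN2: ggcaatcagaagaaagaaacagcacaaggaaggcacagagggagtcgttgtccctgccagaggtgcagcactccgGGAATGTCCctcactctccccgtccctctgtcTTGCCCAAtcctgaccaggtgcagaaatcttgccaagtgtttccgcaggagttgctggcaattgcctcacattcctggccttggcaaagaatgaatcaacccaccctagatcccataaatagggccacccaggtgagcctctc
CFB: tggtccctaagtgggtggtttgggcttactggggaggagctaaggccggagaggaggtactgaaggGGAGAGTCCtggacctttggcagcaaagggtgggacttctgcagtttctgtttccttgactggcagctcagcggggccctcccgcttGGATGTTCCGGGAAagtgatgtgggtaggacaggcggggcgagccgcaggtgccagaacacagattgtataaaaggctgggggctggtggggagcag
The motifs searched on both strands were GGANNNTCC for NF-kB, TTNNGCAA for C/EBP and TTCNNNGAA for STAT, which 7.80%, 9.05% and 6.57% of 35116 promoters hold in the same window. LCN2 had an NF-kB match that begins 175 bases before the start and a C/EBP match on the other strand at 143. CFB had NF-kB matches at 184 and 97 and a STAT match at 92 that overlaps the latter. Of 6 members with an entry (CFB, LCN2, PIGR, SERPINA1, SERPINA3 and LTF), 2 held the NF-kB motif, 1 the C/EBP motif and 2 the STAT motif. Such matches describe the letters in this window and are not evidence of binding.

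LTF encodes lactoferrin, the iron-binding protein of milk and of neutrophil granules, on the minus strand of chromosome 3 (chr3:46435645-46485234). It was listed at 0 in 11 of 12 libraries and at 0.0139 FPKM in the other, a CFPAC-1 library.

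C3 encodes the protein on which all complement pathways converge and lies on the minus strand of chromosome 19 (chr19:6677704-6730562). It was 57.8, 58.7 and 59.4 FPKM in BxPC-3 and 90.8, 88.4 and 92.4 in BxPC-3-GR. It was 127, 163 and 167 in CFPAC-1 and 148, 163 and 172 in CFPAC-1-GR. The BxPC-3 groups were apart and the CFPAC-1 groups overlapped, with log2FC of 0.62 (SE 0.0462) and 0.09 (SE 0.123). The latter was 0.41 with the GC and length correction and -0.07 with median-of-ratios scaling, so C3 has no settled direction in CFPAC-1.

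CFB encodes factor B, which supplies the protease of the alternative pathway convertase, and lies on the plus strand of chromosome 6 (chr6:31945650-31952084). It was 0.0625, 0.0443 and 0.00636 FPKM in BxPC-3 and 1.71, 1.73 and 1.74 in BxPC-3-GR. In CFPAC-1 it was 1.90, 0.0517 and 0.144, and in CFPAC-1-GR 3.94, 0.229 and 4.13. The CFPAC-1 libraries differed among themselves by more than the groups did. AL645922.1, a gene model on the same strand that shares 2249 exon bases with CFB, was at 0, 4.22 and 4.41 in those CFPAC-1 libraries and at 0, 8.59 and 0 in the CFPAC-1-GR libraries. Libraries with little CFB thus had the other gene and the reverse. Summed over both genes, the level was 3.57 ± 1.46 FPKM in CFPAC-1 and 5.63 ± 2.76 in CFPAC-1-GR, and 0.115 ± 0.045 in BxPC-3 and 1.72 ± 0.014 in BxPC-3-GR. The log2FC of CFB in CFPAC-1 was 1.05 (SE 0.640, corrected 1.25), ran from 0.70 without CFPAC-1-GR replicate 3 to 1.73 without CFPAC-1-GR replicate 2, and was 0.52 for the sum.

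**Figure D2:**
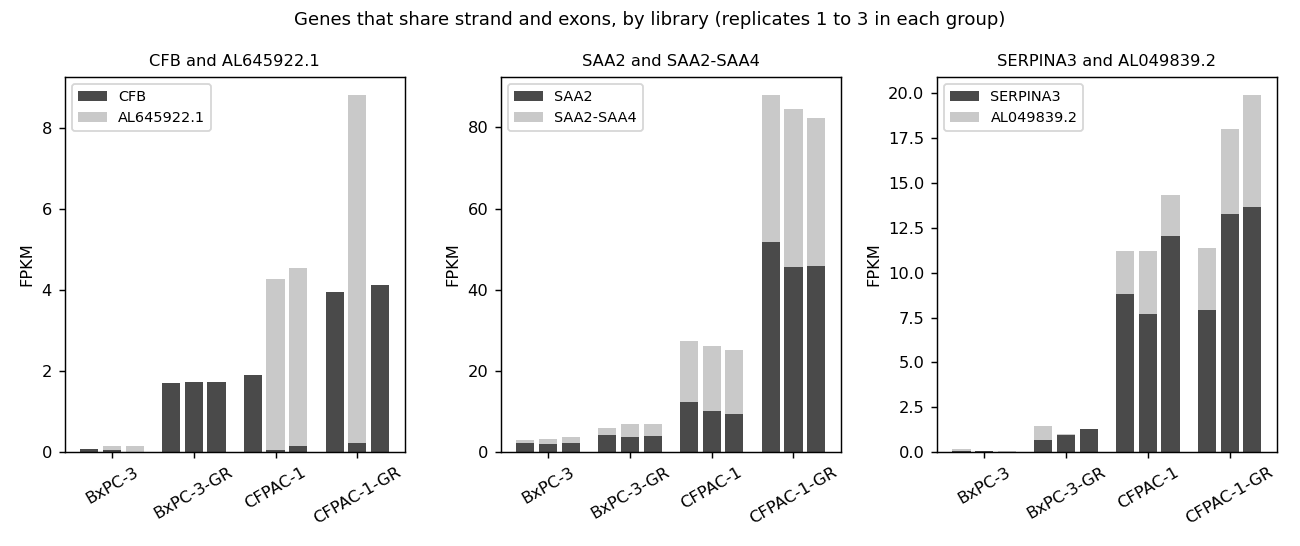
Stacked bars of FPKM in each library for CFB, SAA2 and SERPINA3 (dark) and for the gene on the same strand that shares exon bases with each (light), with 3 bars per group. In CFPAC-1 replicates 2 and 3 and CFPAC-1-GR replicate 2 nearly all of the CFB bar is AL645922.1, at 4.22, 4.41 and 8.59 FPKM.

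SAA1 and SAA2 encode the acute serum amyloid A proteins, which travel on high-density lipoprotein, and lie on chromosome 11, SAA1 on the plus strand (chr11:18266174-18269977) and SAA2 on the minus strand (chr11:18239223-18248643). Their coding sequences, of 366 bases each, were identical at 97.0% of positions, with 11 different bases and a run of 186 identical ones. The first 300 bases (GENCODE 29 transcripts) are shown with the 9 differing bases in capitals. Fragments of the coding sequence that cover no differing base fit both genes. The joined exons are 796 bases long for SAA1 and 2227 for SAA2, and their bases outside the coding sequence were not compared.
SAA1: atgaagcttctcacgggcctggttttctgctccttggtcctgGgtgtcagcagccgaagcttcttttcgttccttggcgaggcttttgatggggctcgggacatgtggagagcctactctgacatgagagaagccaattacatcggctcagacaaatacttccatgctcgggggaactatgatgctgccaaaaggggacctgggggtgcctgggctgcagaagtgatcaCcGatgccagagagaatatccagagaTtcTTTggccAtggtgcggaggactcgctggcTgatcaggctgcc
SAA2: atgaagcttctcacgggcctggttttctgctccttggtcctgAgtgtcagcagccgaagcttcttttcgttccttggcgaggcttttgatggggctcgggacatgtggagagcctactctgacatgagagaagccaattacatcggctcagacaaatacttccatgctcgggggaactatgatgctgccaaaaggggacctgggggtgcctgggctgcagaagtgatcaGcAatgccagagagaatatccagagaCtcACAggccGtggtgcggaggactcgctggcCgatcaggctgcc
How the authors divided such fragments is not given in the sources used here, so the split between SAA1 and SAA2 is uncertain.

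SAA1 was 16.8, 19.0 and 15.9 FPKM in BxPC-3 and 28.8, 29.3 and 27.9 in BxPC-3-GR, and 82.3, 69.7 and 68.7 in CFPAC-1 and 184, 230 and 195 in CFPAC-1-GR. SAA2 was 2.33, 2.05 and 2.14 in BxPC-3 and 4.13, 3.70 and 3.89 in BxPC-3-GR, and 12.3, 10.1 and 9.29 in CFPAC-1 and 51.7, 45.5 and 45.8 in CFPAC-1-GR. Both genes were higher in both resistant lines with no overlap, and the ratio of the means was larger in CFPAC-1 (2.76 for SAA1 and 4.51 for SAA2) than in BxPC-3 (1.66 and 1.80). The log2FC in CFPAC-1 was 1.45 (SE 0.113) for SAA1 and 2.08 (SE 0.113) for SAA2. With the GC and length correction these were 1.68 and 1.71. The readthrough gene SAA2-SAA4 shares 267 exon bases with SAA2, and summed with it SAA2 stood at 3.32 ± 0.31 FPKM in BxPC-3 against 6.64 ± 0.55 in BxPC-3-GR, and at 26.2 ± 1.17 in CFPAC-1 against 85.0 ± 2.80 in CFPAC-1-GR.

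SERPINA1 encodes alpha-1-antitrypsin, the main inhibitor of neutrophil elastase, on the minus strand of chromosome 14 (chr14:94376747-94390693). It was 0.0485, 0.0344 and 0.0148 FPKM in BxPC-3 and 0.402, 0.351 and 0.377 in BxPC-3-GR. It was 12.4, 13.5 and 15.1 in CFPAC-1 and 11.1, 14.9 and 12.4 in CFPAC-1-GR. The BxPC-3 groups did not overlap although all 6 libraries were low, and the CFPAC-1 groups overlapped with a log2FC of -0.09 (SE 0.121), which was 0.18 with the GC and length correction.

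SERPINA3 encodes alpha-1-antichymotrypsin, an inhibitor of cathepsin G, on the plus strand of the same chromosome (chr14:94612377-94624055). It was 0.0468, 0.0652 and 0 FPKM in BxPC-3 and 0.665, 0.953 and 1.27 in BxPC-3-GR. It was 8.82, 7.67 and 12.02 in CFPAC-1 and 7.92, 13.3 and 13.7 in CFPAC-1-GR. The pattern was that of SERPINA1, with BxPC-3 near 0, BxPC-3-GR low and the CFPAC-1 groups overlapping (log2FC 0.25, SE 0.232, corrected 0.50). AL049839.2 shares 1592 exon bases with SERPINA3 on the same strand, and the sum of both was 12.3 ± 1.80 FPKM in CFPAC-1 and 16.4 ± 4.48 in CFPAC-1-GR.

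PIGR encodes the polymeric immunoglobulin receptor, which carries IgA across epithelium and is cleaved to release secretory component, on the minus strand of chromosome 1 (chr1:206928518-206946466). It was 1.57, 1.83 and 1.71 FPKM in BxPC-3 and 25.9, 24.2 and 29.1 in BxPC-3-GR, a 15.5-fold ratio of the means. It was 43.9, 43.5 and 45.5 in CFPAC-1 and 59.7, 55.6 and 57.3 in CFPAC-1-GR, a 1.30-fold ratio. Neither pair overlapped, and the log2FC was 3.34 (SE 0.0808) in BxPC-3 and 0.37 (SE 0.0634) in CFPAC-1, which was 0.66 with the GC and length correction.

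**Figure D3:**
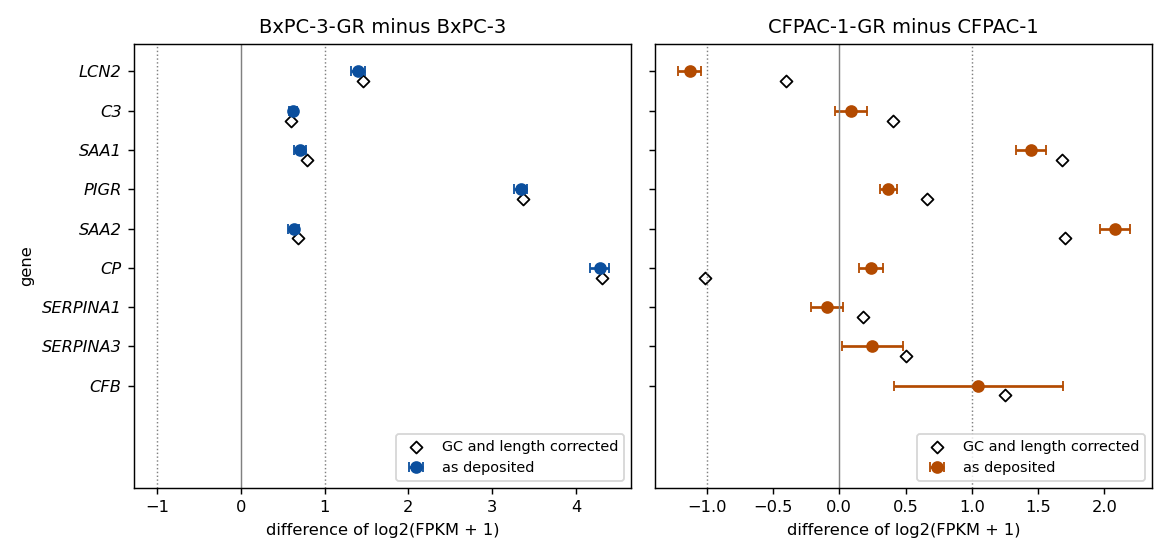
Difference of log2(FPKM + 1), resistant minus parental, for the genes that passed the filter in each pair (filled, with SE) and the same after correction for GC content and length (open), with dotted lines at a change of 1. In BxPC-3 both kinds of value lie together, whereas in CFPAC-1 LCN2 moves from -1.13 to -0.40 and CP from 0.24 to -1.01.

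A gene was called significantly differentially expressed (SDE) when the adjusted p of limma was below 0.05 and the log2FC was above 1 in size, among genes whose mean over the compared libraries reached 1 FPKM. Of the 10 genes, 6 passed this filter in BxPC-3 (CP, C3, SAA1, SAA2, LCN2 and PIGR), and by size alone the log2FC was above 1 for CP, LCN2 and PIGR and below -1 for none. Among all 11710 genes tested, 4.14% were called higher and 3.62% lower, and 66.1% had groups that did not overlap. In CFPAC-1, 9 genes passed, and the log2FC was above 1 for SAA1, SAA2 and CFB and below -1 for LCN2, while 5 genes did not overlap. CFB is among those that overlapped. The mean of CP was under 1 FPKM in BxPC-3, and so was that of CFB in CFPAC-1. Each passed the filter only through the resistant group of that pair, so its direction was set by the filter. Among all 12051 genes, 20.5% were called higher and 11.7% lower, and 82.1% did not overlap. The split of all calls in CFPAC-1, 2473 higher and 1407 lower, was 2058 and 1850 with median-of-ratios scaling. Since the members were chosen on these contrasts, nothing is read from their counts.

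Between the parental lines, 8 of the 10 genes passed the filter, and all 8 were lower in BxPC-3 than in CFPAC-1 with no overlap, with a median log2FC of -2.67 (BxPC-3 minus CFPAC-1). CP, SERPINA1 and SERPINA3 were under 1 FPKM in BxPC-3 and passed only through CFPAC-1. Their direction was thus set by the filter, and the median includes them. Among all 11842 genes, 24.7% were called higher and 19.8% lower in BxPC-3, and 85.6% did not overlap, with both directions counted. On the log2(FPKM + 1) scale the difference was largest for PIGR (-4.07, SE 0.0578), SERPINA1 (-3.82, SE 0.0778) and LCN2 (-3.50, SE 0.0826) and smallest for C3 (-1.35, SE 0.111). With the GC and length correction these were -3.60, -3.39, -2.61 and -0.93, and the value for CP went from -1.81 to -3.09. By the ratio of the means, CFPAC-1 over BxPC-3, SERPINA1 (420-fold) and SERPINA3 (254-fold) stood above PIGR (26.0-fold) and LCN2 (11.4-fold). The ratios of SERPINA1 and SERPINA3 rest on few fragments in BxPC-3. CP was the gene whose order turned with resistance, at 26.8 ± 4.34 FPKM in BxPC-3-GR against 4.87 ± 0.29 in CFPAC-1-GR.

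The difference of response, which is the log2FC in BxPC-3 minus that in CFPAC-1, was 4.04 for CP, 2.97 for PIGR, 2.53 for LCN2 and -1.45 for SAA2. With the GC and length correction these were 5.29, 2.69, 1.84 and -1.04. Of all 12210 genes tested for it, 38.0% were called in either direction, with 1758 higher and 2885 lower, or 2452 and 2162 with median-of-ratios scaling.

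Other genes of these pathways were taken from 9 lists, 216 entries in all, and tested with all genes in limma with Benjamini-Hochberg adjustment. In BxPC-3-GR, 15 of 87 tested entries rose and 11 fell, which is 17.2% and 12.6% beside the 4.14% and 3.62% of all genes, with a median log2FC of 0.08 beside -0.05. In CFPAC-1-GR, 18 of 102 rose and 15 fell, which is 17.6% and 14.7%, near the 20.5% and 11.7% of all genes, with a median of -0.19 beside 0.13. The counts for single lists below are to be read against the same shares. The lists were chosen with earlier results of these data known, so an excess over those shares is a description and not a test of the lists. The same limit holds for the adjusted p of the genes named from them. Some listed genes had a mean under 1 FPKM in a group and passed the filter only through the other group of the pair. Their direction was thus set by the filter, and their adjusted p is no support for it. Of the called genes named below, these were C1R, MUC1, IL1R1 and TLR4 in the BxPC-3 pair. In the CFPAC-1 pair they were CFD, SAA4, ATP7A, IL6ST, LIFR and REL. With the GC and length correction, 3 of the 18 and 8 of the 15 kept their call, and with median-of-ratios scaling, which moved the median of all genes to 0.00, 14 entries rose and 24 fell. The log2FC of genes named for CFPAC-1-GR are therefore followed by the corrected ones.

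**Figure D4:**
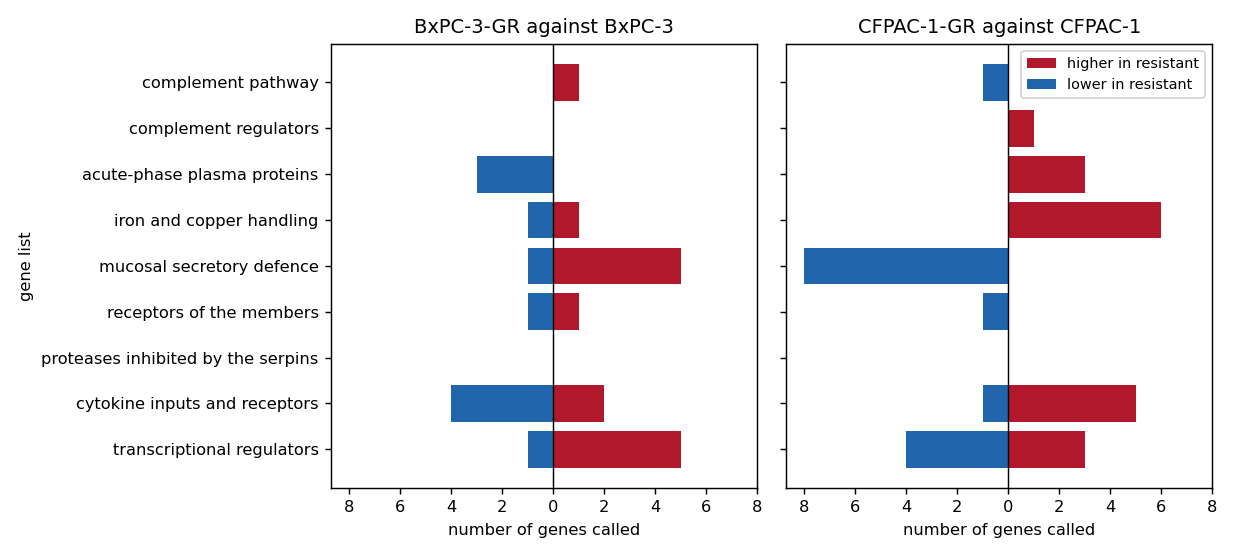
Number of genes called higher (right) and lower (left) in resistant cells for each of the 9 pathway lists, with the BxPC-3 pair on the left and the CFPAC-1 pair on the right, on values as deposited. Mucosal secretory defence has 5 higher and 1 lower in BxPC-3-GR, and 0 higher and 8 lower in CFPAC-1-GR. Some genes counted here passed the filter only through the group where they were higher, which set their direction.

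Of the complement pathway, 3 of 27 genes were tested in each pair. C1R, a protease of the classical pathway, rose in BxPC-3-GR (log2FC 1.49, adjusted p = 0.00073) and was 2.88 ± 0.12 FPKM in CFPAC-1-GR against 3.39 ± 0.48 in CFPAC-1 (-0.17, corrected 0.16). CFD, the protease that cleaves factor B, fell in CFPAC-1-GR (-1.26, adjusted p = 2.0e-05, corrected -0.16, no longer called). C1S and C5 were low throughout, at no more than 0.923 ± 0.15 and 0.611 ± 0.020 FPKM. Among complement regulators, none of 5 tested was called by limma in BxPC-3-GR, although 3 had an unadjusted p below 0.05, whereas 1 of 9 was called in CFPAC-1-GR. That was CD46, a membrane cofactor for C3b cleavage (1.51, adjusted p = 7.9e-06, corrected 0.15, no longer called). CFI, the protease that uses this and other cofactors, was 2.62 ± 0.29 in CFPAC-1 and 5.34 ± 0.30 in CFPAC-1-GR (0.81, corrected -0.23). CD55 and CD59, which protect host membranes, were not called in either pair, with log2FC of 0.08 and -0.81 in BxPC-3-GR and of -0.53 and 0.88 in CFPAC-1-GR (corrected -1.56 and 0.14), although CD55 was called lower with the correction.

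Of the other acute-phase plasma proteins, 0 of 4 tested rose and 3 fell in BxPC-3-GR, and 3 of 7 rose and 0 fell in CFPAC-1-GR. Among the genes that fell were S100A9, a subunit of calprotectin (-1.89, adjusted p = 6.0e-06), and IL1RN, the interleukin-1 receptor antagonist (-1.22, adjusted p = 0.00028). S100A9 rose in CFPAC-1-GR from 3.14 ± 0.63 to 269 ± 24.5 FPKM (6.04, adjusted p = 2.3e-06, corrected 6.66). SAA4, the constitutive serum amyloid A beside SAA2, rose there as well (2.63, adjusted p = 1.7e-05, corrected 2.64). The readthrough gene SAA2-SAA4 was 37.3 ± 1.53 FPKM in CFPAC-1-GR against 15.6 ± 0.50 in CFPAC-1. How its fragments were divided from those of SAA4 is not given in the sources used here. FN1, fibronectin, was called on the deposited values only (1.08, adjusted p = 2.7e-05, corrected -0.15).

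Of iron and copper handling, 1 of 18 tested genes rose and 1 fell in BxPC-3-GR, and 6 of 20 rose and 0 fell in CFPAC-1-GR. In BxPC-3-GR the ferritin heavy chain FTH1 rose (1.31, adjusted p = 0.0001) and the light chain FTL fell (-1.18, adjusted p = 8.4e-05), and both have many near-identical pseudogenes that could share their fragments. TFRC, the transferrin receptor, rose in CFPAC-1-GR (1.72, adjusted p = 6.8e-06), as did IREB2 (1.75), NCOA4 (1.56) and ATP7A (1.21). With the correction these 4 were 0.62, 0.35, 0.80 and -0.16 and none was called. TF, transferrin, was at most 0.052 ± 0.024 FPKM.

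Mucosal secretory defence genes were called mostly higher in one resistant line and only lower in the other, with 5 of 9 tested higher and 1 lower in BxPC-3-GR and 0 of 13 higher and 8 lower in CFPAC-1-GR. In both pairs these counts include genes, MUC1 among them, that passed the filter only through the group where they were higher. The direction of those genes was set by the filter. WFDC2, a WAP-domain secreted protein, rose in BxPC-3-GR from 1.74 ± 0.22 to 61.6 ± 6.60 FPKM (4.51, adjusted p = 2.2e-06) and fell in CFPAC-1-GR from 53.1 ± 1.01 to 15.7 ± 1.96 (-1.71, adjusted p = 9.0e-06, corrected -1.44). DUOXA2, the maturation factor of the peroxide-producing oxidase DUOX2, likewise rose in BxPC-3-GR (2.16, adjusted p = 4.6e-05) and fell in CFPAC-1-GR (-2.03, adjusted p = 6.3e-06, corrected -1.18). For both, the difference of response in limma was 6.21 (adjusted p = 5.2e-10) and 4.19 (adjusted p = 4.6e-09). Since both genes were called in opposite directions in the lines, a large difference follows from those calls and adds no separate support. MUC1, a membrane mucin, rose in BxPC-3-GR (1.88, adjusted p = 1.3e-05), while PI3, the elastase inhibitor elafin, fell from 195 ± 4.82 to 12.1 ± 0.53 FPKM (-3.91, adjusted p = 7.9e-07). In CFPAC-1-GR, DMBT1 fell from 44.5 ± 6.88 to 2.17 ± 0.36 FPKM (-3.84, adjusted p = 6.3e-06, corrected -3.53) and LYZ, lysozyme, fell too (-1.81, adjusted p = 0.0002, corrected -2.56).

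Among receptors of the 10 proteins, 1 of 4 tested rose and 1 fell in BxPC-3-GR, LRP1 (1.28, adjusted p = 9.9e-05) and TLR4 (-1.46, adjusted p = 1.3e-05). In CFPAC-1-GR, ITGB2, a chain of complement receptor 3, fell (-1.97, adjusted p = 6.3e-06, corrected -1.38), 1 of 5 tested. SLC22A17, a receptor for LCN2, was listed at 0 in all BxPC-3 and BxPC-3-GR libraries and was 0.537 ± 0.147 and 0.499 ± 0.151 FPKM in CFPAC-1 and CFPAC-1-GR. None of the proteases inhibited by the serpins was called by limma in either pair, where 1 of 8 was tested for BxPC-3 and 2 of 8 for CFPAC-1, all with an unadjusted p below 0.05.

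Of cytokine inputs and receptors, 2 of 15 tested rose and 4 fell in BxPC-3-GR, and 5 of 15 rose and 1 fell in CFPAC-1-GR. In BxPC-3-GR, IL1R1, the interleukin-1 receptor, rose (2.27, adjusted p = 5.9e-06), as did IL10RB (1.20, adjusted p = 6.3e-05), and the ligands IL1A (-1.64, adjusted p = 1.6e-05) and IL1B (-1.45, adjusted p = 1.5e-05) fell. In CFPAC-1-GR, IL6ST, the signal chain shared by interleukin-6 family receptors, rose from 0.948 ± 0.022 to 12.4 ± 2.31 FPKM (2.76, adjusted p = 6.3e-06, corrected 1.35 and still called). IL1A (1.77, adjusted p = 5.2e-05), LIFR (1.59, adjusted p = 4.5e-05) and IFNGR1 (1.28, adjusted p = 3.9e-05) were called there on the deposited values only, with corrected values of 0.82, 0.12 and 0.31.

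Of transcriptional regulators, 5 of 28 tested rose and 1 fell in BxPC-3-GR, and 3 of 28 rose and 4 fell in CFPAC-1-GR. In BxPC-3-GR the epithelial factor ELF3 rose (2.38, adjusted p = 1.1e-05), as did CEBPD, a C/EBP factor of the acute-phase response (1.70, adjusted p = 4.2e-05), PIAS3, an inhibitor of STAT3 (1.33, adjusted p = 0.0005), and NFKBIA, an inhibitor and target of NF-kB (1.27, adjusted p = 8.6e-05). CEBPD was 18.6 ± 1.82 FPKM in CFPAC-1-GR against 37.4 ± 2.25 in CFPAC-1 (-0.97, corrected 0.07). STAT3 (0.31 in BxPC-3-GR, 0.24 in CFPAC-1-GR, corrected 0.04), NFKBIZ (0.07 and 0.82, corrected 0.32) and CEBPB (0.32 and -0.67, corrected 0.39) met the criteria in neither pair, and the sign for CEBPB in CFPAC-1-GR turned with the correction. In CFPAC-1-GR, REL rose (1.53, adjusted p = 0.0013) and BCL3 fell (-1.45, adjusted p = 6.3e-06) on the deposited values, whereas the corrected values of 0.10 and -0.48 were not called.

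Over the 12 libraries, the genes whose log2(FPKM + 1) was most like that of a member, among 12209 searched, were CSF1 (r = 0.991), FAM105A and AC104966.1 for CP, ZMYM3 (0.997), AGBL5 and DBNDD1 for LCN2, and WWC3 (0.994), MEX3A and GRIPAP1 for C3. They were ADGRF1 (0.995), CFI and AL591845.1 for SAA1 and VWA5A (0.992), LRRN4 and ADGRF1 for SAA2, so that ADGRF1 stood near both. For PIGR they were AFAP1 (0.995), LINC00511 and C15orf48, for SERPINA1 PLA2G16 (0.999), MRPL33 and EPHB2, and for SERPINA3 LIPH (0.992), HIP1 and SLC39A11. CFB had no close match, with 0.868 for KPNA2P3 at most, followed by KIAA0895L and LINC00674. The libraries fall into 4 groups, so that such r mainly describes the order of the group means.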

How the data were processed

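The deposited table holds FPKM per gene for each library, made by the authors with the GRCh38 reference. The submitters' processing notes also name Trimmomatic 0.27, FastQC 0.10.1, TopHat2 2.0.8 and hg19, with no role. The counting program is not given in the sources used here. The study tested counts, which are not used here, so limma 3.58.1 (R 4.3.3) was used here on log2(FPKM + 1), keeping genes whose mean over both groups reached 1 FPKM, with Benjamini-Hochberg adjustment. Genes were SDE with an adjusted p below 0.05 and a log2FC above 1 in size. The fit was tested on simulated data.

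The 10 members and all gene lists were chosen with earlier results of these data known. From the lists, the text names called genes whose groups did not overlap, at most the 4 with the largest log2FC per list and resistant-parental comparison, and 17 genes set whatever their values. Some genes that this rule names are not reported here, though they stay in the fits and in the counts of each list. Positions, lengths and GC content came from GENCODE 29 (58039 of 58302 genes), and promoters from RefSeq (GRCh38.p14). The GC and length correction used splines with 5 degrees of freedom each. Alternatives were other pseudocounts, filters and scalings, the correction, a replicate block, protein-coding genes only, all 12 libraries in 1 fit and leaving out each library. Adding genes that share exons with a member was chosen after seeing the data. Counts behind FPKM were estimated, not given, so intervals of counts were not computed.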

Additional observations from a re-analysis of the deposited data

Results flagged for a closer look

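LCN2 rose in all BxPC-3-GR libraries and fell in all CFPAC-1-GR libraries against their parents, a difference of response of 2.53 on the log2 scale that was not tested because LCN2 was chosen on these values.

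Of 45 named pathway genes, 41 had a fit of limma's interaction term and 32 differed in their response between the lines (adjusted p at most 0.0215), 17 with a higher and 15 with a lower change in BxPC-3. Of all genes tested 38.0% were called for this term, and most of the named genes were named for a large change in 1 of the lines. With the GC and length correction 21 kept the call and 11 lost it, which were CD59 (-1.02), CFD (0.98), IFNGR1 (-0.25), IREB2 (-0.77), LRP1 (0.73), MUC1 (0.82), NCOA4 (-0.98), REL (-0.08), TLR4 (-0.59) and, with the sign turned, CD46 (0.10) and LIFR (0.11). The log2 difference without correction was positive for WFDC2 (6.21), DUOXA2 (4.19), DMBT1 (3.64), ELF3 (2.91), CEBPD (2.68), CFD (2.16), BCL3 (2.16), PIAS3 (2.08), ITGB2 (2.06), LYZ (2.05), MUC1 (1.89), IL10RB (1.76), C1R (1.66), FTH1 (1.61), IL1R1 (1.56), LRP1 (1.34) and NFKBIA (1.32). It was negative for S100A9 (-7.92), PI3 (-3.56), IL6ST (-3.54), IL1A (-3.41), TFRC (-2.35), IREB2 (-2.12), SAA4 (-2.02), TLR4 (-1.90), NCOA4 (-1.75), CD59 (-1.70), REL (-1.42), IL1RN (-1.37), LIFR (-1.30), IFNGR1 (-1.27) and CD46 (-1.25).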

How the results depend on the processing

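A pseudocount of 0.1 gave 1429 SDE genes in BxPC-3-GR in place of 909. The GC and length correction gave 1042 in CFPAC-1-GR in place of 3880, 16 pathway genes in place of 33, 3143 genes between the parental lines in place of 5274 and 2243 for the difference of response in place of 4643. With the replicate block added to the correction these were 1046, 16, 3140 and 2239. The replicate block alone gave 908, 3883, 5279 and 4643. The pairing check found correlations of -0.134 to 0.0895 between same-numbered libraries, which were therefore not treated as pairs. Whether they share a preparation step is not given in the sources used here. Leaving out 1 library gave 849 to 965, 3614 to 3991, 5127 to 5320 and 4427 to 4748. Of 562 log2FC values of the members under alternatives, 463 moved by less than the spread between replicates and 99 by more. With a pseudocount of 0.1 the log2FC of CP in BxPC-3-GR was 5.69 in place of 4.28. Depth limits CFB, SERPINA1 and SERPINA3 in BxPC-3 and LTF in all groups, where levels rest on few fragments.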
